A study of Danio rerio with 10 samples.

Results

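The comparison set the 2 libraries of zebrafish embryos kept in thallium nitrate at 800 ppb, replicates 1 and 2, against the 2 untreated libraries (0 ppb) whose expression profiles were closest to them, replicates 4 and 5. These were 4 of the 10 libraries of the series, and 18462 of the 32057 genes in the read count files had a mean of at least 1 CPM (reads of a gene per megaread of its library) over the 4 libraries and were tested. At the edge of that rule, KCNAB3 stayed out with a mean of 0.9996 CPM (5 and 16 reads at 800 ppb, 17 and 13 at 0 ppb) and lrtm2b came in with 1 CPM (28 and 3 reads, against 14 and 10). All embryos were wild type and were sequenced whole. Both groups were handled over the same window, from 6 to 48 hours post fertilisation, and differed by the labels in the dose alone. The labels do not give how many embryos went into a library, or whether replicates came from separate clutches. The p-values below therefore measure the spread between these libraries, which may be technical. The other 3 untreated libraries, 0 ppb replicates 1 to 3, entered no main test and are given only as the normal range of a gene. Replicate 1 of these was built at a hospital core, and the other 6 of these 7 libraries came from a commercial provider. The series also holds 3 libraries at 200 ppb. The comparison addresses which transcripts differed in embryos at the higher dose.

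Thallium is a poisonous metal. As an ion of single charge and a size close to that of potassium, it enters cells through potassium channels and pumps. Cells answer damaged or unfolded proteins in the cytosol through the heat shock factors, which switch on the HSP70 and HSP90 chaperones and their HSP40 partners. A shortage of amino acids, among other stresses, acts through the factor ATF4 of the integrated stress response, whose known targets include asparagine synthetase, amino acid transporters, aminoacyl-tRNA synthetases and the enzymes of serine synthesis. Metallothioneins are small cysteine-rich proteins that bind metal ions and are induced by several metals.

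Embryos at 800 ppb held more transcripts of 7 chaperone genes, led by HSP90AA1 and hsp70.3, of asparagine synthetase (ASNS), of the serine and folate enzymes PHGDH, PSAT1 and ALDH1L2, of the amino acid carrier SLC7A3 and of the tRNA synthetase NARS1. The metallothionein gene MT1X, the lysosomal protease gene ctsla and the hypoxia factor EPAS1 also rose. The selenium carrier selenop, the apolipoprotein apoa4a, pyruvate carboxylase and a gene with a clone name fell. Many zebrafish genes appear below under the human form of their symbol.

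Levels are given in CPM, scaled by the trimmed mean of M-values (TMM), in the order replicate 1 and replicate 2 at 800 ppb, then replicate 4 and replicate 5 at 0 ppb. A log2 difference is 800 ppb minus 0 ppb from edgeR's quasi-likelihood fit with 2 libraries per group. A gene is said to have risen or fallen when its Benjamini-Hochberg adjusted p over all 18462 genes was under 0.05. By that rule 23 genes, 0.125% of those tested, differed: 19 rose (0.103%) and 4 fell (0.0217%). At an unadjusted p under 0.05 there were 815 genes (4.41%), 462 higher (2.5%) and 353 lower (1.91%). The 19 that rose did so by 1.54-fold to 7.61-fold. In all 23, both 800 ppb libraries lay beyond all 5 untreated libraries, which held for 1594 of all genes tested (8.63%; 5.03% higher, 3.61% lower). The margin was under 20% for 5 of them, which were SERPINH1 (4.29%), selenop (7.5%), apoa4a (8.13%), NARS1 (8.72%) and si:dkey-52d15.3 (9.6%). The 23 called genes are all named here. A gene named without an adjusted p under 0.05 was picked after its values were seen, and the gene lists were chosen with earlier results of these data known.

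Which genes were called depended on the untreated libraries used and on which library was left out. The untreated pair was chosen for its likeness in measured expression, so that choice is not independent of the data. With all 5 untreated libraries and a term for where they were built, or with the provider's 4, only HSP90AA1 of the 23 passed (edgeR adjusted p under 0.05). Without 800 ppb replicate 1, 8 genes passed, 7 of them among the 23: HSP90AA1, ctsla, MT1X, selenop, hsp70.3, hsp70l and SERPINH1 (ENSDARG00000019949). Leaving out 800 ppb replicate 2, 0 ppb replicate 4 or 0 ppb replicate 5 gave 63, 52 and 64 genes, 22 of the 23 among them each time. The log2 difference of each of the 23 kept its sign in all 13 alternative settings. These settings reused the same libraries, and in all 23 both 800 ppb libraries lay beyond all 5 untreated ones. A change of sign was therefore hardly possible.

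The correlation of log2 CPM across genes was 0.9826 between both 800 ppb libraries and 0.9824 between both 0 ppb libraries. With 800 ppb replicate 1 it was 0.9852 for 0 ppb replicate 4 and 0.9822 for replicate 5. With 800 ppb replicate 2 it was 0.9784 for 0 ppb replicate 4 and 0.9852 for replicate 5. The untreated pair was chosen for its likeness to the 800 ppb libraries, so these values describe that choice, and genes are not independent replicates. Against the other 3 untreated libraries the correlations were 0.91 to 0.9653. The first principal component, 44.9% of the variance, put 800 ppb replicate 1 and 0 ppb replicate 4 on one side and 800 ppb replicate 2 and 0 ppb replicate 5 on the other. The second, 31.8%, separated the doses. Across genes, the difference of 800 ppb replicate 1 minus replicate 2 and that of 0 ppb replicate 4 minus replicate 5 had a correlation of 0.306. The labels give no pairing of these libraries. In 6055 genes (32.8%) the groups did not overlap, and in 1594 of these (26.3%) both 800 ppb libraries were also beyond the other 3 untreated ones. Depth was 14.9 and 12.1 megareads at 800 ppb and 12.3 and 13.6 at 0 ppb. Transcripts of the mitochondrial genome took 4.61% and 4.54% of counts at 800 ppb, 4.25% and 4.29% at 0 ppb, and 1.94% to 3.81% in the other 3 untreated libraries. The part of these differences in the results was not tested.

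**Figure D1:**
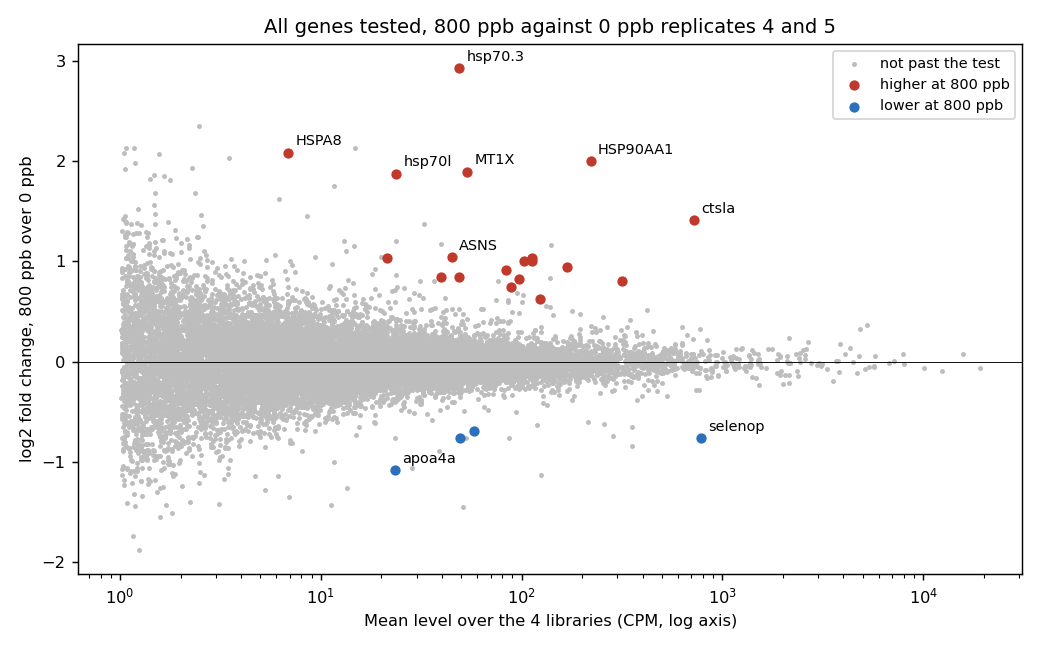
Log2 difference of 800 ppb over 0 ppb (replicates 4 and 5; vertical axis) against the mean level of each of the 18462 genes tested (horizontal axis, log scale, CPM). Coloured points are the 23 genes past the adjusted threshold, 19 above 0 and 4 below it. Grey points are the genes not past it, and some lie as far from 0 as coloured ones.

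Chaperones and their partners made up 7 of the 19 rises, and the largest among them. HSP90AA1 (ENSDARG00000024746), an HSP90 alpha gene whose product folds kinases and receptors, had 399 and 307 CPM at 800 ppb, against 83.5 and 92.5 CPM at 0 ppb. Both treated libraries were far above every untreated one, including the other 3, at 58.3 to 124 CPM. The log2 difference was 2.001 ± 0.12 (SE), a rise of 4.003-fold with the smallest p of all genes (edgeR adjusted p = 0.000134). hsp70.3, a heat-inducible HSP70 gene, had 120.1 and 52.4 CPM at 800 ppb, against 8.30 and 14.2 CPM at 0 ppb, and 6.55 to 23.2 CPM in the other 3 untreated libraries. The treated libraries did not overlap the untreated ones, but 800 ppb replicate 1 held more than replicate 2 by 1.19 on the log2 scale. Its log2 difference of 2.93 ± 0.35 (SE) was the largest of the 23 (edgeR adjusted p = 0.0128).

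hsp70l, another inducible HSP70 gene first known in zebrafish for its expression in the lens, had 46.4 and 28.5 CPM at 800 ppb, against 8.71 and 11.6 CPM at 0 ppb. It rose by 1.87 ± 0.23 (SE) on the log2 scale (edgeR adjusted p = 0.0147). The gene given the symbol HSPA8 under ENSDARG00000037403, of the HSP70 family, had 11.8 and 10.5 CPM at 800 ppb, against 2.49 and 2.74 CPM at 0 ppb. Treated and untreated libraries were well apart at this low level, with a log2 difference of 2.09 ± 0.25 (SE) and an edgeR adjusted p of 0.0128. HSPA4 (ENSDARG00000004754), of the HSP110 family that releases nucleotide from HSP70, had 152 and 149.6 CPM at 800 ppb, against 100.3 and 94.98 CPM at 0 ppb. The shift was small and the libraries within a group lay close together (0.62 log2, edgeR adjusted p = 0.0288).

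Of the 16 cytosolic HSP90 and HSP70 genes tested, these 5 rose and none fell, beside 0.103% and 0.0217% of all genes. The median log2 difference of the list was 0.56, beside 5.47e-05 over all genes, and 15 of 16 lay above 0, beside 50% of all genes. In 11 of the 16 both treated libraries exceeded all 5 untreated ones, beside 5.03% of all genes. HSPA2 had 33.6 and 14.6 CPM at 800 ppb, against 4.23 and 6.74 CPM at 0 ppb, and did not pass (edgeR adjusted p = 0.0667). HSP90AB1, the constitutive HSP90 beta gene, had 6016 and 5791 CPM at 800 ppb, against 4629.5 and 4540.4 CPM at 0 ppb, and its small difference did not pass either (edgeR adjusted p = 0.106). HSP70 and HSP90 genes are near-identical in places, so reads may have been split between copies. Summed over 7 cytosolic HSP70 genes, the level was 5925 and 5236 CPM at 800 ppb and 4424 and 4239 CPM at 0 ppb, a ratio of 1.29. Most of it came from another HSPA8 gene (ENSDARG00000068992), with 5703 and 5124 CPM at 800 ppb and 4396 and 4201 CPM at 0 ppb. The sum left out hsc70, which had 110 and 84.7 CPM at 800 ppb and 63.0 and 48.6 CPM at 0 ppb. Over both HSP90 alpha genes the sum was 596 and 529.9 CPM at 800 ppb and 247 and 225 CPM at 0 ppb, a ratio of 2.39. These sums were not tested.

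**Figure D2:**
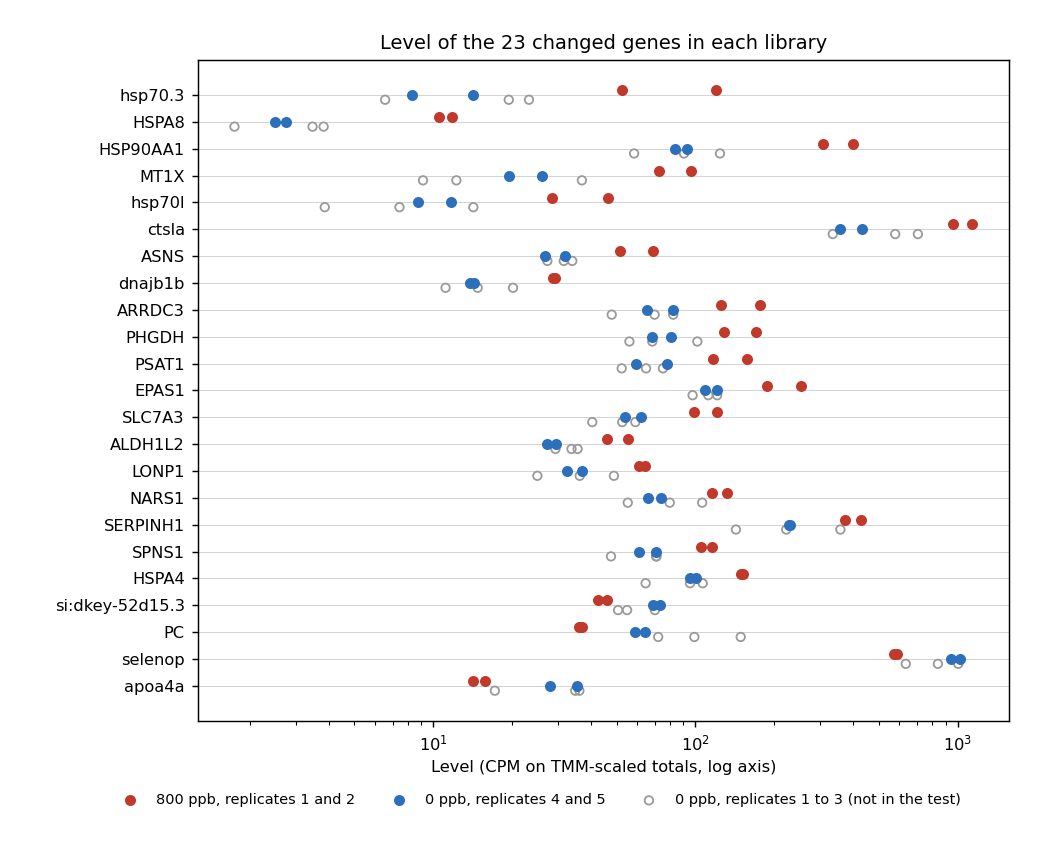
Level in CPM (log scale) of each of the 23 called genes in the 800 ppb libraries, the 0 ppb replicates 4 and 5, and the other 3 untreated libraries; each point is 1 library. Both treated points lie above all untreated points for the 19 genes that rose and below them for the 4 that fell, narrowly for SERPINH1, selenop, apoa4a, NARS1 and si:dkey-52d15.3.

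Among the genes listed as co-chaperones, chaperonins and heat shock factors, dnajb1b and SERPINH1 rose. dnajb1b, an HSP40 gene whose product hands clients to HSP70, had 29.001 and 28.7 CPM at 800 ppb, against 13.8 and 14.3 CPM at 0 ppb. Replicates lay close together within each dose, and the log2 difference was 1.04 ± 0.14 (SE) (edgeR adjusted p = 0.0213). SERPINH1 (ENSDARG00000019949), the collagen chaperone HSP47 of the endoplasmic reticulum, had 373 and 427 CPM at 800 ppb, against 228 and 230.3 CPM at 0 ppb. It rose by 0.80 on the log2 scale (edgeR adjusted p = 0.0119), although 0 ppb replicate 3 reached 357 CPM, just under the lower treated library. Of the 45 co-chaperones, chaperonins and heat shock factors tested, 2 rose and none fell, beside 0.103% and 0.0217% of all genes. Their median log2 difference was 0.17, and 40 of 45 lay above 0, beside 50% of all genes. HSPD1, the mitochondrial chaperonin, had 293 and 303 CPM at 800 ppb, against 244 and 225 CPM at 0 ppb. UNC45B, a myosin chaperone, had 58.2 and 60.99 CPM at 800 ppb, against 44.4 and 41.3 CPM at 0 ppb. In both the groups did not overlap, and neither passed. hsf1, the heat shock factor itself, had 26.9 and 31.9 CPM at 800 ppb, against 24.1 and 33.3 CPM at 0 ppb, with the groups overlapping.

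On the list of the unfolded protein response and the chaperones of the endoplasmic reticulum, which does not hold SERPINH1, none of 28 genes passed the test. Their median was -0.10, and 5 of 28 lay above 0, beside 50% of all genes. In 11 of the 28 both treated libraries lay below both untreated ones and in 3 above, beside 15.9% and 16.9% of all genes. Against all 5 untreated libraries, 0 lay below and 1 above, beside 3.61% and 5.03% of all genes. HSPA5 (BiP), the main HSP70 of that compartment, had 466 and 507 CPM at 800 ppb, against 527 and 504 CPM at 0 ppb. HSP90B1, its HSP90, had 421 and 480.5 CPM at 800 ppb, against 487 and 470.5 CPM at 0 ppb. Their treated and untreated libraries overlapped. The 9 small heat shock proteins tested also gave no call, with a median of -0.13, 2 above 0 and 7 below. Between 0 ppb replicates 4 and 5 the list median was 0.13. HSPB1 had 32.9 and 31.4 CPM at 800 ppb, against 28.4 and 22.7 CPM at 0 ppb. It was above all 5 untreated libraries without passing the test.

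Asparagine synthetase, enzymes of the serine and folate pathways, an amino acid carrier and a tRNA synthetase made up 6 of the 19 rises. They come from 4 of the gene lists. ASNS, which makes asparagine, had 69.1 and 51.7 CPM at 800 ppb, against 26.6 and 31.8 CPM at 0 ppb. Every untreated library, the other 3 included, lay between 26.6 and 33.9 CPM, and the gene rose by 1.04 ± 0.15 (SE) on the log2 scale (edgeR adjusted p = 0.0288). PHGDH, the entry enzyme of serine synthesis, had 170.2 and 129 CPM at 800 ppb, against 80.7 and 68.2 CPM at 0 ppb, a log2 difference of 1.004 ± 0.13 (SE) (edgeR adjusted p = 0.0213). PSAT1, which follows it in the pathway, had 157 and 117 CPM at 800 ppb, against 77.6 and 59.3 CPM at 0 ppb, a log2 difference of 1.0005 ± 0.15 (SE) (edgeR adjusted p = 0.0401). For both, 800 ppb replicate 1 held more than replicate 2, and 0 ppb replicate 4 more than replicate 5. ALDH1L2, a mitochondrial enzyme that releases carbon dioxide from formyl-tetrahydrofolate, had 55.5 and 46.1 CPM at 800 ppb, against 29.4 and 27.1 CPM at 0 ppb, a log2 difference of 0.85 ± 0.13 (SE) (edgeR adjusted p = 0.0334). SLC7A3 (ENSDARG00000020645), a carrier of cationic amino acids, had 120.5 and 98.6 CPM at 800 ppb, against 62.2 and 53.9 CPM at 0 ppb. It rose by 0.91 ± 0.12 (SE) on the log2 scale (edgeR adjusted p = 0.0213). NARS1, the cytosolic asparaginyl-tRNA synthetase, had 132 and 115 CPM at 800 ppb, against 74.01 and 65.9 CPM at 0 ppb, a rise of 0.82 ± 0.11 (SE) on the log2 scale (edgeR adjusted p = 0.0213).

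Read by list, the enzymes of serine synthesis and folate one-carbon metabolism had 3 of 17 members risen and a median of 0.31, with 13 of 17 above 0. ATF4 regulators and targets had 1 of 23 risen and a median of 0.29, with 21 of 23 above 0. The amino acid transporters had 1 of 29 risen and a median of 0.18, with 21 of 29 above 0. No member of these lists fell. Over all genes 0.103% rose and 50% lay above 0. Between 800 ppb replicates 1 and 2 the medians of the 3 lists were 0.18, 0.29 and 0.19, so for the ATF4 genes and the transporters the treated replicates differed by about as much as the doses did. The part of that in the results was not tested. Several members lay near the threshold. sesn2, a stress-induced inhibitor of the growth regulator mTORC1, had 19.98 and 16.3 CPM at 800 ppb, against 8.46 and 7.26 CPM at 0 ppb (edgeR adjusted p = 0.0504). SLC1A4, a carrier of neutral amino acids, had 236 and 153 CPM at 800 ppb, against 101 and 73.3 CPM at 0 ppb (edgeR adjusted p = 0.0601). SLC6A15, another such carrier, is on none of these lists but also lay near the threshold. It had 30.4 and 30.5 CPM at 800 ppb, against 15.3 and 18.1 CPM at 0 ppb (edgeR adjusted p = 0.0601). The ATF4 gene atf4b had 402 and 411 CPM at 800 ppb, against 334 and 329 CPM at 0 ppb, and its groups did not overlap, but it was not past the test (edgeR adjusted p = 0.541).

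The cytosolic aminoacyl-tRNA synthetases, which load amino acids onto their tRNAs, gave small positive differences in all but 1 member. Of 19 tested, NARS1 alone rose, beside 0.103% of all genes. The median log2 difference was 0.33, 18 of 19 lay above 0, and in 18 both treated libraries exceeded both untreated ones, beside 16.9% of all genes. In 16 of the 19 they also exceeded the other 3 untreated libraries, beside 5.03% of all genes. MARS1, for methionine, had 55.3 and 51.3 CPM at 800 ppb, against 37.7 and 36.5 CPM at 0 ppb. TARS1, for threonine, had 182 and 151 CPM at 800 ppb, against 128 and 112 CPM at 0 ppb. Neither passed, though their groups did not overlap. The list median was 0.10 between 800 ppb replicates 1 and 2 and 0.15 between 0 ppb replicates 4 and 5. The 16 synthetases with the symbol of a mitochondrial enzyme, listed by name pattern after the cytosolic values were seen, gave a median of 0.03. Of these 10 of 16 lay above 0 and none was called. Whether each serves the mitochondrion alone was not checked. In 1 of them both treated libraries exceeded all 5 untreated ones. The difference between the cytosolic and mitochondrial lists was not tested.

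**Figure D3:**
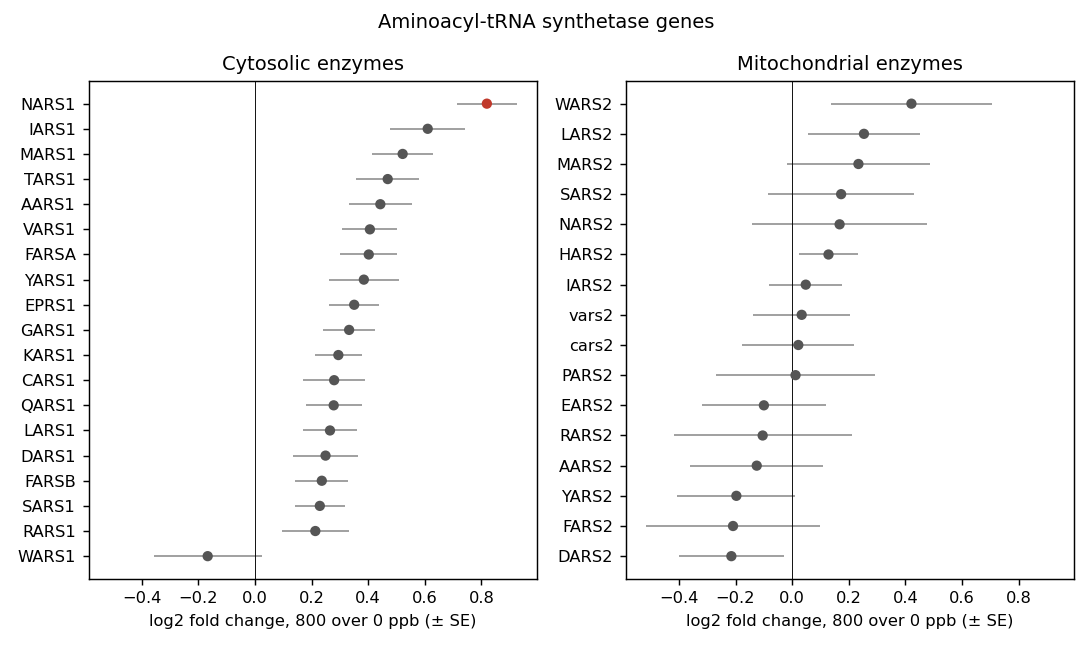
Log2 difference of 800 ppb over 0 ppb (replicates 4 and 5) for the 19 cytosolic aminoacyl-tRNA synthetases and the 16 mitochondrial ones by symbol. Each point is 1 gene with its standard error. The cytosolic points lie above 0 in 18 of 19, while the mitochondrial ones lie on both sides of 0.

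Of the metal response, the metallothionein gene MT1X (ENSDARG00000041623) rose. It had 95.8 and 72.7 CPM at 800 ppb, against 25.9 and 19.5 CPM at 0 ppb, and 9.13 to 36.9 CPM in the other 3 untreated libraries. The lower treated library was 1.97 times the highest untreated one, and the log2 difference was 1.89 ± 0.16 (SE), or 3.72-fold (edgeR adjusted p = 0.00126). The other 24 of 25 genes of metal response and transport did not pass, and the median of the list was -0.01. In 5 of the 25, MT1X and fth1a among them, both treated libraries lay above all 5 untreated ones, and in 1, SLC39A10, below. Over all genes these shares were 5.03% and 3.61%. fth1a, an iron-storing ferritin, had 930.1 and 786 CPM at 800 ppb, against 717 and 645 CPM at 0 ppb. SLC30A1, a zinc exporter that metal-responsive factor 1 is known to induce, had 41.8 and 42.9 CPM at 800 ppb, against 38.4 and 34.7 CPM at 0 ppb (ENSDARG00000005463). SLC39A10, a zinc importer, was lower in both treated libraries than in all 5 untreated ones, with 30.8 and 34.5 CPM at 800 ppb, against 39.5 and 51.2 CPM at 0 ppb, and did not pass (edgeR adjusted p = 0.694). None of 31 NRF2 and glutathione genes passed, and their median was 0.07. GCLC, the catalytic subunit of the enzyme that begins glutathione synthesis, had 46.4 and 48.8 CPM at 800 ppb, against 36.6 and 36.1 CPM at 0 ppb. GCLM, its modifier subunit, had 16.9 and 17.8 CPM at 800 ppb, against 11.8 and 12.003 CPM at 0 ppb. Both were above all 5 untreated libraries without passing the test.

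The other 4 genes that rose beside MT1X and EPAS1 act in lysosomes, mitochondria or at membranes. ctsla, a lysosomal cysteine protease of the cathepsin L type, had 1135 and 963 CPM at 800 ppb, against 433 and 355 CPM at 0 ppb, and 334 to 706 CPM in the other 3 untreated libraries. It rose by 1.41 ± 0.11 (SE) on the log2 scale (edgeR adjusted p = 0.00072). The other 15 genes of hatching gland and lysosomal proteases did not pass, and the hatching enzyme gene he1.1 had 369 and 256 CPM at 800 ppb, against 299.9 and 270.2 CPM at 0 ppb, with overlapping groups. SPNS1, a lysosomal lipid transporter, had 116 and 105 CPM at 800 ppb, against 70.7 and 60.8 CPM at 0 ppb, a log2 difference of 0.74 ± 0.11 (SE) (edgeR adjusted p = 0.0288). LONP1, the protease of the mitochondrial matrix, had 63.9 and 60.9 CPM at 800 ppb, against 32.4 and 36.9 CPM at 0 ppb, and rose by 0.84 ± 0.11 (SE) on the log2 scale (edgeR adjusted p = 0.0213). ARRDC3 (ENSDARG00000036028), an arrestin-like adaptor that guides ubiquitination of membrane proteins, had 176 and 125 CPM at 800 ppb, against 81.8 and 65.6 CPM at 0 ppb. It rose by 1.03 ± 0.15 (SE) on the log2 scale (edgeR adjusted p = 0.0334).

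EPAS1 (ENSDARG00000008697), the hypoxia-inducible factor HIF-2 alpha, had 253 and 188 CPM at 800 ppb, against 120.4 and 108 CPM at 0 ppb. The 5 untreated libraries were close together, at 97.5 to 121 CPM, and the gene rose by 0.94 ± 0.13 (SE) on the log2 scale (edgeR adjusted p = 0.0241). Of 32 hypoxia-inducible factors and targets it was the member past the test, beside 0.125% of all genes. The list median was 0.15 with 26 of 32 above 0, beside 50% of all genes. The list's median between 800 ppb replicates 1 and 2 was larger, 0.29. IGFBP1, a hypoxia target that binds insulin-like growth factors, had 63.7 and 29.9 CPM at 800 ppb, against 20.99 and 15.4 CPM at 0 ppb, and the replicates at 800 ppb lay far apart. HIF1A had 189.6 and 181 CPM at 800 ppb, against 178 and 182 CPM at 0 ppb.

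Of the 19 genes that rose, 18 were more abundant in 800 ppb replicate 1 than in replicate 2, SERPINH1 being the exception. Over all genes 9417 of 18462 were more abundant in replicate 1. In the untreated pair 11 of the same 19 were more abundant in replicate 4 than in replicate 5. The 19 genes summed to 3674 and 3077 CPM at 800 ppb and 1559 and 1413 CPM at 0 ppb.

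Both plasma protein genes among the 4 that fell are known for transport. selenop, the selenium carrier secreted by the liver, had 587 and 573 CPM at 800 ppb, against 945 and 1021 CPM at 0 ppb, and 635 to 1007 CPM in the other 3 untreated libraries. The treated libraries were below all others, though 0 ppb replicate 1 lay close to them, and the log2 difference was -0.77 ± 0.08 (SE) (edgeR adjusted p = 0.00508). Of 23 selenoproteins and genes of their synthesis, selenop was the member past the test, beside 0.125% of all genes. The list median was -0.13 with 4 of 23 above 0, beside 50% of all genes. Between 800 ppb replicates 1 and 2 the median of the list was 0.15. apoa4a, an apolipoprotein of the yolk syncytial layer and gut, had 14.2 and 15.8 CPM at 800 ppb, against 35.4 and 27.9 CPM at 0 ppb. Its log2 difference was -1.08 ± 0.16 (SE) (edgeR adjusted p = 0.031). PC (ENSDARG00000051939), pyruvate carboxylase, which feeds the citric acid cycle and gluconeogenesis, had 36.03 and 36.8 CPM at 800 ppb, against 64.4 and 59.05 CPM at 0 ppb, a log2 difference of -0.76 ± 0.11 (SE) (edgeR adjusted p = 0.0272). In the other 3 untreated libraries PC had 72.1 to 149 CPM. From these, 0 ppb replicates 4 and 5 differed by -0.72 on the log2 scale, about as much as the doses did. The gene with the clone name si:dkey-52d15.3, of no role known here, had 45.8 and 42.4 CPM at 800 ppb, against 73.4 and 69.1 CPM at 0 ppb, a log2 difference of -0.69 ± 0.10 (SE) (edgeR adjusted p = 0.0329). Of the 42 genes of the yolk syncytial layer, lipoproteins and lipids, apoa4a was the member past the test, beside 0.125% of all genes. The median of that list was -0.10. SOAT2, which esterifies cholesterol, had 3.72 and 2.41 CPM at 800 ppb, against 6.89 and 8.08 CPM at 0 ppb. Both treated libraries were below all 5 untreated ones, without passing the test.

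Zebrafish hold a pair of genes for many single mammalian genes, and for 7 of the called genes the files hold a second gene with the same symbol. No second copy passed the test. The second HSPA8 (ENSDARG00000068992) had 5703 and 5124 CPM at 800 ppb, against 4396 and 4201 CPM at 0 ppb, a log2 difference of 0.33. The second ARRDC3 (ENSDARG00000052690) had 122 and 88.4 CPM at 800 ppb, against 82.3 and 66.7 CPM at 0 ppb, or 0.49 on the log2 scale. The second EPAS1 (ENSDARG00000057671) had 25.97 and 16.8 CPM at 800 ppb, against 18.8 and 17.8 CPM at 0 ppb. For the second copies of SERPINH1, HSPA4, PC and SLC7A3 the log2 differences were -0.13, -0.08, 0.05 and 0.02. The pairs were picked because 1 copy was called, which by itself tends to set that copy farther from 0. The difference between the copies of a pair was not tested.

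**Figure D4:**
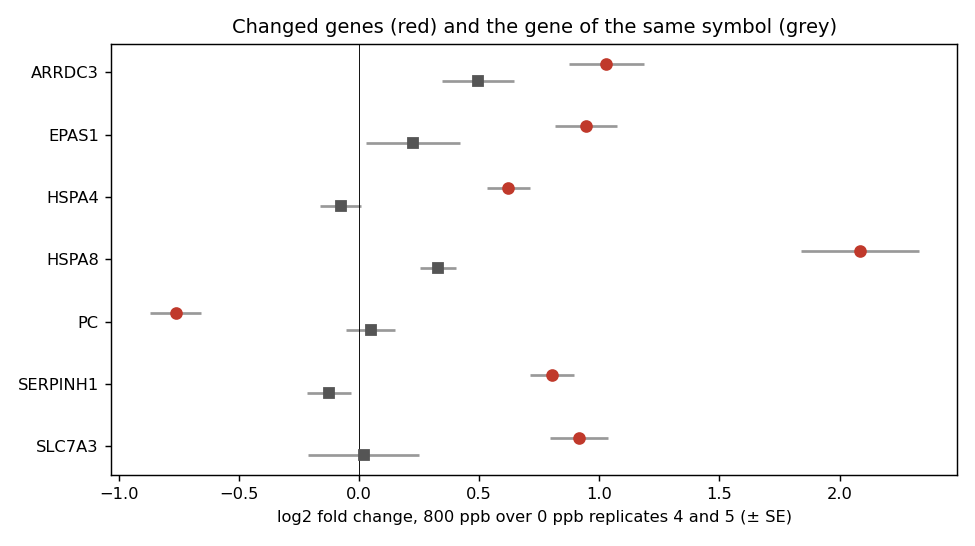
Log2 difference of 800 ppb over 0 ppb (replicates 4 and 5) with its standard error for 7 called genes and for the second gene of the same symbol. The called copy lies farther from 0 than its partner in each pair, which is largely set by picking it for passing the test. The partners lie between -0.13 and 0.49.

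Thallium shares its routes with potassium, and no gene on the lists of those routes passed the test. Of 62 potassium channel genes tested none was called, 35 lay above 0, and the median was 0.03. In 13 of the 62 both treated libraries lay below both untreated ones and in 10 above, beside 15.9% and 16.9% of all genes. Against all 5 untreated libraries, 10 lay below and 3 above, beside 3.61% and 5.03% of all genes. The list's median was -0.20 for 0 ppb replicates 4 and 5 minus the other 3 untreated libraries. The part of that in these counts was not tested. The groups did not overlap in 3 of 7 genes with the symbol KCNJ1, an inward rectifier of ionocytes and kidney, beside 32.8% of all genes. ENSDARG00000090866 had 2.82 and 5.06 CPM at 800 ppb, against 11.1 and 8.82 CPM at 0 ppb. ENSDARG00000090635 had 1.93 and 1.74 CPM at 800 ppb, against 0.747 and 0.667 CPM at 0 ppb. In both, treated libraries lay beyond all 5 untreated ones, on opposite sides. ENSDARG00000086248 had 2.34 and 2.41 CPM at 800 ppb, against 1.16 and 1.26 CPM at 0 ppb. These levels were low, 1 CPM being 12.1 to 14.9 reads in the 4 libraries, and the copies may share reads. None of 29 genes of the sodium-potassium ATPase and of potassium-chloride cotransport was called, and the median was 0.03. The ATPase subunit gene atp1a1a.2 had 124 and 136 CPM at 800 ppb, against 97.8 and 110.3 CPM at 0 ppb. slc12a10.2, the sodium-chloride cotransporter of ionocytes, had 25.5 and 22.1 CPM at 800 ppb, against 16.8 and 13.1 CPM at 0 ppb, and was above all 5 untreated libraries without passing (edgeR adjusted p = 0.414).

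Lists of cell types and organs gave no call except the genes named above. The sample is a whole embryo, so fewer cells of a type and less RNA per cell cannot be told apart. Markers of the main tissues were present at both doses. The epidermal keratin krt4 had 13754 and 10319.8 CPM at 800 ppb, against 13604 and 12084 CPM at 0 ppb. The RNA-binding protein gene ELAVL3, a marker of new neurons, had 475 and 599 CPM at 800 ppb, against 471 and 594 CPM at 0 ppb. The cardiac myosin light chain MYL7 had 29.1 and 25.5 CPM at 800 ppb, against 29.5 and 30.3 CPM at 0 ppb. The lens crystallin CRYAA had 22.1 and 47.5 CPM at 800 ppb, against 16.3 and 43.1 CPM at 0 ppb, a wider gap between replicates than between doses. List medians ran from -0.06 for 37 epidermal genes to 0.06 for 21 of heart muscle, with neuronal, skeletal muscle, lens, erythrocyte, pigment cell, inner ear and liver genes between these values. Outside that range, glia, myelin and Notch targets had a median of -0.10 with 10 of 26 above 0. In 8 of the 26 the treated libraries lay below both untreated ones and in 2 above, beside 15.9% and 16.9% of all genes. Against all 5 untreated libraries, 0 of the 26 lay below and 1 above, beside 3.61% and 5.03% of all genes. Genes of inflammation and innate immunity had a median of -0.14 with 6 of 18 above 0. The list's median was larger within groups, at 0.32 between 800 ppb replicates 1 and 2 and 0.26 between 0 ppb replicates 4 and 5. Cartilage, bone and osteoclast genes had 5 of 35 above 0 and a median of -0.11. Their median was 0.18 between 800 ppb replicates 1 and 2 and 0.11 between 0 ppb replicates 4 and 5. The treated libraries lay below both untreated ones in 14 of the 35 and above them in none, beside 15.9% and 16.9% of all genes. ACP5, the acid phosphatase of osteoclasts and macrophages, had 16.1 and 20.7 CPM at 800 ppb, against 45.96 and 30.5 CPM at 0 ppb (edgeR adjusted p = 0.11). The cartilage collagen gene col9a1b had 378 and 389.6 CPM at 800 ppb, against 444 and 490.0 CPM at 0 ppb. Genes of DNA replication and cell division had 22 of 70 above 0 and a median of -0.06. Between 800 ppb replicates 1 and 2 the median of that list was farther from 0, at -0.19.

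**Figure D5:**
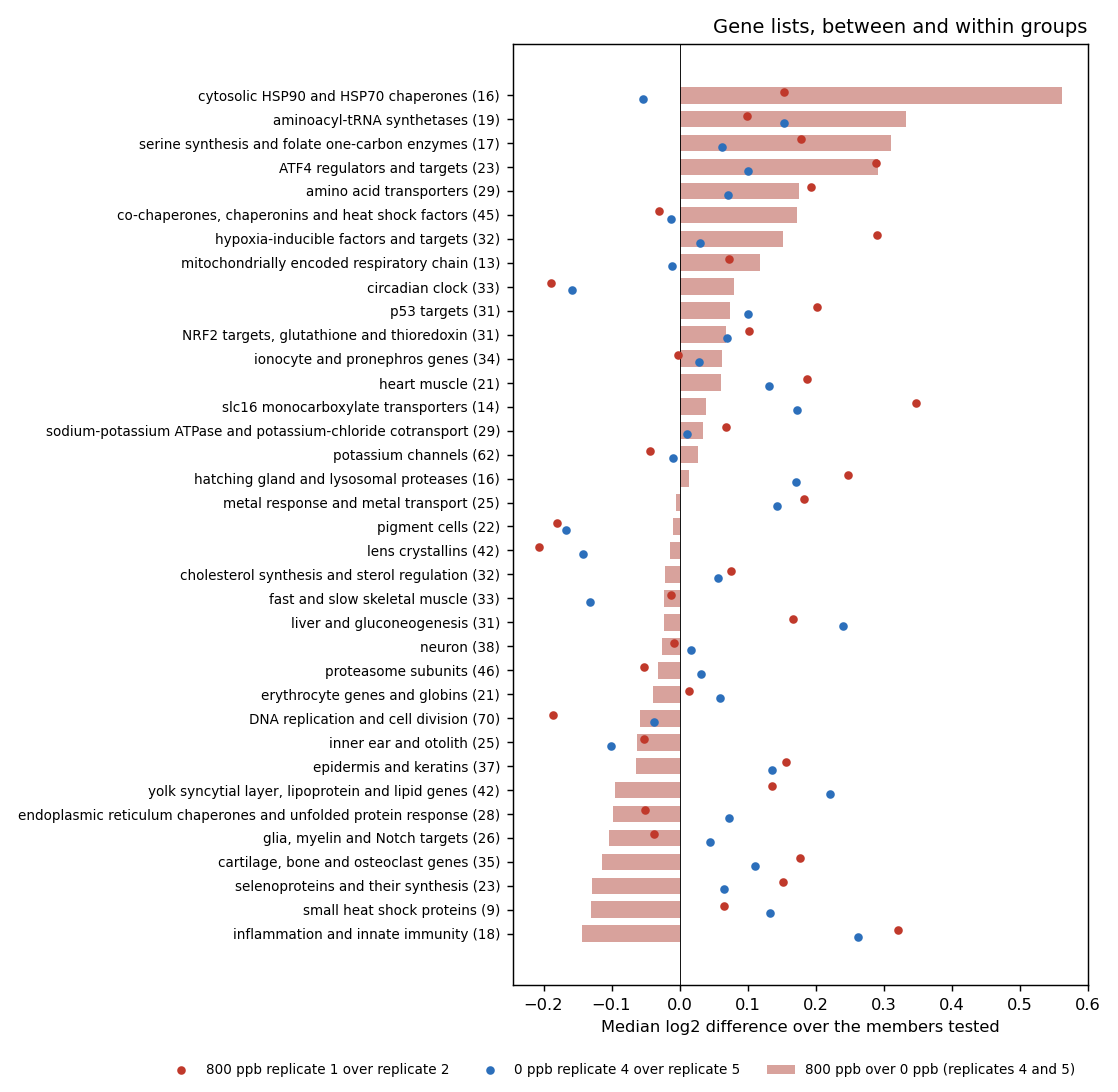
Median log2 difference over the members tested of each of the 36 gene lists (number in brackets). Bars give 800 ppb over 0 ppb replicates 4 and 5, red points 800 ppb replicate 1 over replicate 2, and blue points 0 ppb replicate 4 over replicate 5; the cytosolic HSP90 and HSP70 list has the longest bar (0.56), while for 26 of the 36 lists a point lies farther from 0 than the bar.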

How the data were processed

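Whole wild-type embryos were sequenced in 10 libraries, grouped by the doses in the sample titles. The authors deposited a file of read counts per gene for every library, in whole numbers, and these were the input of the test. A series table that the authors deposited under the name CPM holds log2 values, and served as an alternative count set with no pseudocount. The submitters' processing notes list GRCz11 as the build and, with neither version nor role, FastQC, cutadapt, STAR and edgeR. Which program counted the reads, on which annotation and strand, is not given in the sources used here, so genes overlapping on opposite strands cannot be told apart. Both files from the hospital core list 463 features more than the others (0.339% and 0.342% of counts), which were left out. No genome was used.

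The fit used edgeR 4.0.16 (R 4.3.3) on genes with a mean of at least 1 CPM over the 4 libraries (TMM factors of 0.991 to 1.01, dose as the single term, quasi-likelihood F-test, two-sided, Benjamini-Hochberg adjustment, threshold 0.05). The fit had 2 residual degrees of freedom, a common dispersion of 0.013 and a median standard error of 0.187 on the log2 scale. The standard error of a gene is its absolute log2 difference over the square root of F. A 2 against 2 exact permutation test of a single value cannot go below p = 0.333 and was not used. CPM values use TMM-scaled totals over the 7 libraries at 0 and 800 ppb. The main fit was tried on simulated counts with known changes, drawn independently for each library. The simulation held no link between libraries of different doses, so it does not cover one. Gene symbols were looked up by Ensembl ID and found for 17899 of the 18462 genes. Of the 1206 entries in the 36 gene lists, 865 matched a symbol as written, 252 matched without their paralog letter, and 89 had no match.

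The untreated pair, the members and the lists were chosen with earlier results of these data known. By rule, all called genes with a gene symbol are named. The 1 called gene with a clone name was added to them after its values were seen. The replicate numbers shared by other groups do not link the libraries compared. Alternatives were DESeq2 1.42.0, limma-voom and limma-trend (limma 3.58.1), other scaling and filters, other untreated libraries, all 10 libraries with a library batch term, and leaving out each library. That term, known from earlier results of these data and not from the labels, sets replicates 1, 2 and 3 of 0 and 200 ppb and the 4 libraries compared as 4 batches. Tables were made with Python 3.11.15 and pandas 2.3.3, and plots with matplotlib 3.10.9.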

Additional observations from a re-analysis of the deposited data

Results flagged for a closer look

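HSPA4 (ENSDARG00000004754) had 64.55 CPM in 0 ppb replicate 1, while the other 4 untreated libraries held 94.98 to 106.6 CPM. The gap to the nearest of them was 0.724 of the whole range of the 5 untreated libraries, over Dixon's 95% critical value of 0.71 for 5 samples. The called genes were each checked in the 5 untreated libraries, and chance gives such a gap in about 1 of 20 groups. The library with the low value entered no main test, and HSPA4 had 152 and 149.6 CPM at 800 ppb, against 100.3 and 94.98 CPM at 0 ppb replicates 4 and 5.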

How the results depend on the processing

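Scaling by DESeq2 size factors, filterByExpr and limma-voom gave 23 to 24 genes, the 23 called ones among them. The deposited log2 table gave 26, of which 21 were shared, without ALDH1L2 and ARRDC3. Without a filter on low levels, 142 genes passed (103 higher, 39 lower), with DESeq2 49 (38 higher, 11 lower; 1432 genes had no adjusted p) and with all 10 libraries and a library batch term 63 (48 higher, 15 lower), the 23 among them each time. With the 5 untreated libraries and a site term 1 gene passed (1 higher, 0 lower), and with the provider's 4 untreated libraries also 1 (1 higher, 0 lower). The cause was not tested. Leaving out 1 library gave 8 to 64 genes, 7 to 52 higher and 1 to 23 lower, with the lone library assumed to vary like the other group. Without 0 ppb replicate 5, 64.1% of the called genes were higher, against 82.6% with it. Of 299 pairs of a called gene and a setting, 234 stayed past the threshold, 65 did not and 0 reversed, and only HSP90AA1 passed in all 13 settings. A reversal was hardly possible, since in each called gene both 800 ppb libraries lay beyond all 5 untreated ones. No paired analysis was possible because the 800 ppb libraries carry the numbers 1 and 2 and the 0 ppb libraries compared carry 4 and 5, so the labels pair none of them. The planned change of pseudocount was not run, since the deposited table is already on a log2 scale. With 12.1 to 14.9 megareads a library, 1 CPM is 12.1 to 14.9 reads, so counting error limits genes near the level rule.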

Other observations

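Several more genes did not pass the test though their groups did not overlap, which held for 32.8% of all genes. nppa, a natriuretic peptide made by the heart under load, had 26.4 and 19.9 CPM at 800 ppb, against 12.7 and 12.6 CPM at 0 ppb, and 14.2 to 16.4 CPM in the other 3 untreated libraries (edgeR adjusted p = 0.152). nppb, its relative, had 3.58 and 3.65 CPM at 800 ppb, against 0.830 and 1.04 CPM at 0 ppb (edgeR adjusted p = 0.184). None of the 21 genes of the heart muscle list passed, and the list median was 0.06. In 3 of the 21 both treated libraries lay above both untreated ones and in 6 below, beside 16.9% and 15.9% of all genes. Against all 5 untreated libraries, 2 of the 21 lay above and 3 below, beside 5.03% and 3.61% of all genes. SLC16A6, a carrier of monocarboxylates and ketone bodies, had 30.7 and 22.9 CPM at 800 ppb, against 13.6 and 12.4 CPM at 0 ppb (edgeR adjusted p = 0.0616). SLC16A9 (ENSDARG00000104687) had 67.9 and 41.6 CPM at 800 ppb, against 26.6 and 21.9 CPM at 0 ppb (edgeR adjusted p = 0.0743). MAT2A (ENSDARG00000037121), which makes the methyl donor S-adenosylmethionine, had 25.1 and 23.6 CPM at 800 ppb, against 11.4 and 14.1 CPM at 0 ppb (edgeR adjusted p = 0.0743). ODC1, the entry enzyme of polyamine synthesis, had 163 and 152 CPM at 800 ppb, against 112 and 101 CPM at 0 ppb (edgeR adjusted p = 0.0668). adm2a, of the adrenomedullin family of vasoactive peptides, is on the hypoxia list described above. It had 6.20 and 5.06 CPM at 800 ppb, against 1.41 and 1.33 CPM at 0 ppb (edgeR adjusted p = 0.0615). In all the genes with levels given here the treated libraries were above both untreated ones.

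None of 31 p53 targets passed, with a median of 0.07, and cdkn1a, the cell cycle inhibitor that p53 is known for, had 1.93 and 2.16 CPM at 800 ppb, against 0.996 and 2.15 CPM at 0 ppb. HMOX1, a heme-degrading enzyme that oxidative stress is known to induce, had 7.16 and 4.31 CPM at 800 ppb, against 9.29 and 5.33 CPM at 0 ppb, with overlapping groups. The 13 mitochondrially encoded genes had 11 above 0 and a median of 0.12, with none past the test. In MT-ND1, a subunit of respiratory complex I, the levels were 2330.4 and 2332 CPM at 800 ppb, against 1967 and 1975 CPM at 0 ppb, and 901 to 2076 CPM in the other 3 untreated libraries. Calsequestrin CASQ1 (ENSDARG00000038716), which stores calcium in muscle, had 109.9 and 117 CPM at 800 ppb, against 144 and 143 CPM at 0 ppb, below all 5 untreated libraries (edgeR adjusted p = 0.487). The other 3 untreated libraries held 195 to 256 CPM of CASQ1, farther from 0 ppb replicates 4 and 5 than the treated ones were. The replication helicase gene MCM5 had 83.01 and 85.05 CPM at 800 ppb, against 104 and 97.1 CPM at 0 ppb. Like CASQ1, it was below all 5 untreated libraries at 800 ppb (edgeR adjusted p = 0.999). Of the 70 genes of DNA replication and cell division, 3 lay below all 5 and 1 above, beside 3.61% and 5.03% of all genes. None of 46 proteasome genes passed, and their median was -0.03.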
